A study of Homo sapiens with 41 samples.

Results

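The 39 genes described here encode the parts of the actin filament and of the actomyosin machinery that pulls on it. They were taken by name from the gene counts of a serum time course, as 39 of the 58721 genes counted, by a rule on names that sets no limit on their values, and all 39 were found by Ensembl identifier. They comprise 4 actins, 4 tropomyosins, 5 proteins of the calponin family, 8 myosin chains and myosin regulators, 5 crosslinking and filament-binding proteins, 2 formins and 11 factors of filament turnover. The cells were T98G, an established human glioblastoma line that arrests when serum is withdrawn. Every culture spent 72 h in serum-free medium, and fetal calf serum at 20% was then added. Total RNA depleted of rRNA was sequenced before serum (0 min) and every 10 min up to 400 min, from a separate dish for each of the 41 time points. Each time point has 1 library, all from 1 cell line, so no time point has a replicate, and the spread of neighbouring libraries about a smooth curve stands in for replicate error.

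Actin monomers (G-actin) assemble into filaments (F-actin) with the help of profilins and formins. Cofilins and their partners take filaments apart again, and tropomyosins and calponins coat them. Non-muscle myosin II slides filaments past each other once its light chains are phosphorylated, and crosslinkers such as α-actinin and filamin hold them in bundles and networks. Serum is a classical trigger of stress fibre formation through the GTPase RhoA. The loss of free G-actin releases the MRTF cofactors to the nucleus, where with the transcription factor SRF they act on CArG boxes in the promoters of many actin cytoskeleton genes.

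The libraries held 18206982 to 64948114 counts (median 41773419), and the smallest were those at 20, 50 and 340 min. Levels are given throughout as normalised counts, each count over its library's median-of-ratios size factor. Of the markers fixed for the line, VIM, CD44, SPARC and FN1 were high in every library (lowest value 13751 normalised counts). Of these, VIM went from 34424 before serum to 57345 at 400 min and CD44 from 13751 to 32466. NES (21.2 to 61.7) and OLIG2 (8.30 to 65.0) were low, and GFAP, S100B and SOX2 were at or near 0 (highest value 6.2). Among 10 muscle markers, 9 never passed 14.2 normalised counts, and LMOD1, an actin nucleator of smooth muscle, went from 6.22 at 0 min to as much as 225. Markers of epithelial, leukocyte and endothelial cells never summed to more than 51.6 normalised counts per type. In bulk RNA, fewer cells of a kind and less RNA per cell cannot be told apart. The deviation of single libraries from the fitted curves moved with the GC content of transcripts, with r from −0.72 at 90 min to 0.68 at 30 min across 14124 genes (a description across genes, which are not independent). Some results are also given below with an offset per library for GC content, added after the data were seen. The offset was taken from ratios to each gene's mean over the course, not from these deviations. It therefore also removes any change in time that genes of like GC content share.

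The members as a group took a growing share of the counts up to 320 min. Of all counts, their share was 0.900% before serum (95% Wilson interval 0.897% to 0.903%). It reached 2.50% in the library of 320 min (2.499% to 2.507%) and was 2.23% in the last one (2.23% to 2.24%), with intervals that cover counting error only. ACTB, ACTG1 and TPM1 together accounted for much of this. From the first to the last library ACTG1 went from 0.117% to 0.467% of counts, ACTB from 0.152% to 0.372% and TPM1 from 0.0221% to 0.240%. The other 36 members still went from 0.609% to 1.16%.

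To compare times, a natural cubic spline was fitted to each gene in edgeR, and a gene was called higher or lower than at 0 min at an adjusted p below 0.01. The filter on low counts left 38 members and 21629 genes in all. MYL9, the smooth muscle myosin regulatory light chain, did not pass, with 0 to 7 counts per library and none in 6 libraries. At 30 min 7 of 38 members were higher and 0 lower, where 1.71% of all genes tested were higher and 0.342% lower (0 of 38 were lower at any of 30, 60 and 120 min). At 60 min 19 were higher (5.15% of all genes, with 1.23% lower), at 120 min 28 (13.6%, with 6.75% lower) and at 240 min 31 (21.6%), while 1, PFN2, was lower (18.5%). At 400 min 33 were higher (24.2%) and 2, MYH10 and PFN2, lower (22.4%). The median log2 change of the members was 0.20, 0.27, 0.69, 0.87 and 1.10 at the 5 times, while that of all genes tested stayed between −0.00 and 0.05. Over the 14204 genes whose mean count was 50 or more, the range in which nearly all members lie, 33.5% were higher at 400 min and the median was 0.08.

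The comparison rests on 1 library at 0 min. With that library left out, the curve had to be extrapolated to 0 min. At the 5 times 1, 4, 10, 19 and 22 members were then higher, where 0.578%, 1.40%, 3.34%, 6.02% and 8.17% of all genes were. No member was lower, where 0.0139% of all genes were at 30 min and 5.24% at 400 min. The levels of several libraries early and late were therefore also set side by side. In 33 members all 4 libraries of 370 to 400 min lay above all 4 of 0 to 30 min, where 28.4% of all genes did so. In 2 members, MYH10 and PFN2, all 4 late libraries lay below the early ones (also 28.4% of all genes), and in MYLK, DIAPH3 and TMSB10, the members that did not pass at 400 min, they overlapped. With size factors from the spike-in sequences, 0, 4, 14, 25 and 28 members were higher, where 0.522%, 1.41%, 4.61%, 10.9% and 12.6% of all genes were. None was lower, where 0.106% of all genes were at 30 min and 11.4% at 400 min. On that scale the median of all genes tested moved by −0.14 at 30 min and −0.24 at 60 min, and 30 and 32 of 38 members lay above it.

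**Figure D1:**
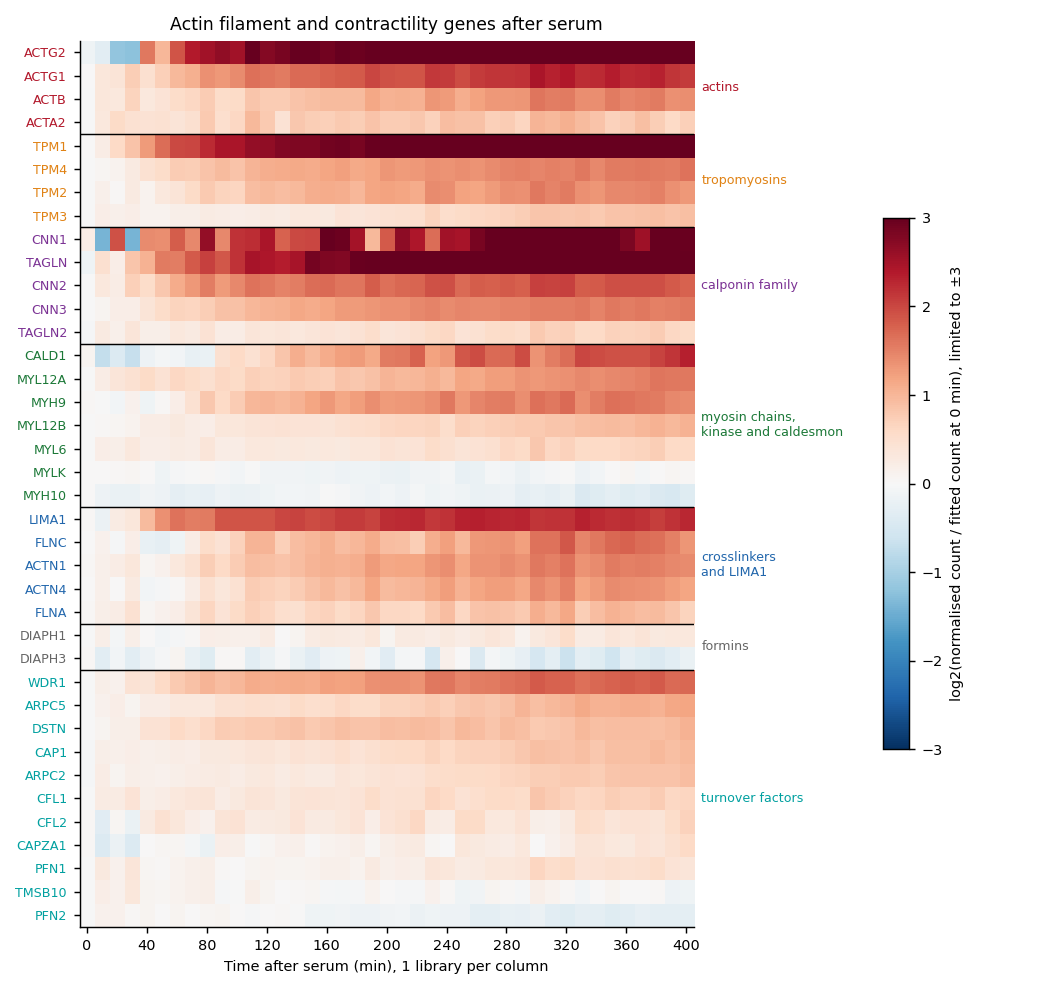
Levels of the 38 members that passed the filter in each of the 41 libraries, as log2 of the normalised count over the fitted count at 0 min (0.5 added to both, colours limited to ±3). Rows are grouped by role and ordered by the change at 400 min. Red spreads through all groups but the formins, and MYH10 and PFN2 turn pale blue late in the course.

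**Figure D2:**
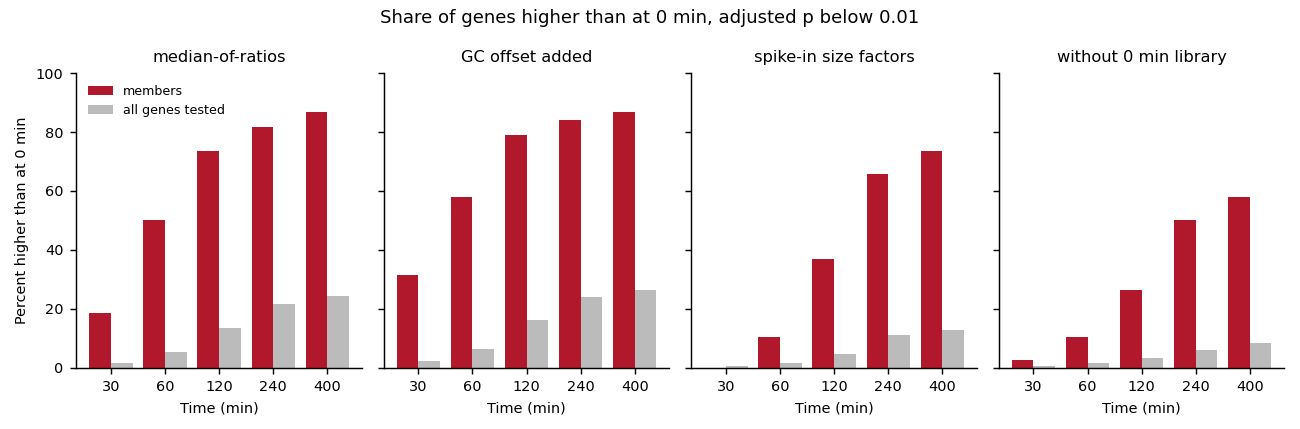
Percent of the 38 members (red) and of all genes tested (grey) that were higher than at 0 min at each of the 5 times, in 4 settings. The members' share exceeds that of all genes at every time in 3 settings, and with spike-in size factors at every time but 30 min, when 0 members were higher.

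Where the promoters of the members carry CArG boxes was read from RefSeq promoters on GRCh38.p14, 250 bases before to 50 bases after each annotated start. The box is a pair of C bases and a pair of G bases around a core of A and T bases, a pattern that reads the same on both strands. Of the members, 35 were in the promoter table. ACTB, TAGLN, MYL9 and PFN2 were not, so their promoters were not scanned. A box was found in 7 of them (20.0%), against 1.60% of all 27305 genes in the table. With 1 mismatch allowed in the outer bases, 11 members (31.4%) and 15.6% of all genes had one. A gene counts here if any of its promoters matches, and the members had more promoters each. Per promoter, 7 of 60 (11.7%) of the members and 1.29% of all 35116 had a box, and 21.7% and 13.02% with 1 mismatch. The 7 genes are ACTG1, ACTG2, TPM4, CNN2, MYLK, ACTN1 and FLNA, and all 8 boxes lay before the annotated start. The only start scanned for MYLK lies inside the gene, near its 3′ end. The boxes are shown in capitals with 10 bases of flank on each side, because only these 7 of the 35 scanned had one.

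ACTG1, minus strand, chr17:81512874-81512903, box 94 bases before the start: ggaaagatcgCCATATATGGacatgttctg
ACTG2, plus strand, chr2:73892888-73892917, box 110 bases before the start: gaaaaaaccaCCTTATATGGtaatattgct
ACTG2, plus strand, chr2:73892925-73892954, box 73 bases before the start: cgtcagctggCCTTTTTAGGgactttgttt
TPM4, plus strand, chr19:16067355-16067384, box 173 bases before the start: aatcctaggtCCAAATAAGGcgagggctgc
CNN2, plus strand, chr19:1026509-1026538, box 89 bases before the start: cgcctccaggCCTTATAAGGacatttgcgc
MYLK, minus strand, chr3:123620623-123620652, box 94 bases before the start: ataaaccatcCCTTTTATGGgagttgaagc
ACTN1, minus strand, chr14:68977718-68977747, box 171 bases before the start: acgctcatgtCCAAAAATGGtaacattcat
FLNA, minus strand, chrX:154374709-154374738, box 94 bases before the start: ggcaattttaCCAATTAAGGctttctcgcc

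The 7 members with a box had log2 changes of 0.05 (MYLK) to 3.98 (ACTG2) at 400 min, with a median of 1.59. The 28 members with a promoter in the table but without a box ranged from −0.44 to 3.58, with a median of 0.96, so the ranges overlapped in large part. TPM1 and LIMA1, which are among the strongest risers, had no box in this window. A match is a description of the sequence only, and the absence of one says nothing of boxes elsewhere.

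All 4 actins were higher at 400 min, ACTA2 and ACTG2 only with the 0 min library included. ACTB (ENSG00000075624.14, chr7:5526409-5563902, minus strand) and ACTG1 (ENSG00000184009.11, chr17:81509413-81523847, minus strand) encode the cytoplasmic β- and γ-actin found in every cell. ACTB had 61209.8, 96874, 89602, 104309, 147828 and 160744 normalised counts at 0, 30, 60, 120, 240 and 400 min, in that order. Over the 41 libraries its lowest value was that before serum, the median 126763 and the highest 187670.5 (300 min). ACTG1 had 46971, 78377, 92376, 141811, 201277 and 201976 normalised counts at the same times, with its lowest value before serum, a median of 172822 and its highest, 258413, in the same library as ACTB. No later library of either gene was as low as that at 0 min. The fitted log2 change at 400 min was 1.48 (SE 0.12, edgeR adjusted p = 8.1e-14) for ACTB and 2.21 (SE 0.11, adjusted p = 2.9e-20) for ACTG1, or 2.79-fold and 4.63-fold.

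The 2 cytoplasmic actins changed places. The ratio of ACTB to ACTG1 counts was 1.30 at 0 min and above 1 in the first 6 libraries. At 60, 120 and 400 min it was 0.970, 0.736 and 0.796, and it stayed below 1 in every library from 60 min on, with a lowest value of 0.695 at 260 min. On the log2 scale the fitted ratio fell by 0.73 between 0 and 400 min (95% interval −0.81 to −0.65). The log2 change of the ratio was −0.10 at 30 min and −0.85 at 120 min, lower than at 400 min. A ratio within a library does not depend on the size factor, and with the GC offset the change was −0.72. Per kb of merged exon, ACTB went from 13896 to 36491 normalised counts and ACTG1 from 11592 to 49846, and the order of the pair at 0 and at 400 min was the same with the length of the canonical transcript. Pseudogenes named after them held 0.077% and 0.088% as many counts as the genes themselves, although featureCounts here credited a read to every gene it mapped to.

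ACTA2 and ACTG2, the smooth muscle α- and γ-actins, were present at low counts. ACTA2 (ENSG00000107796.13, chr10:88935074-88991339, minus strand) had 58.1, 75.8, 101, 111 and 95.1 normalised counts at 0, 60, 120, 240 and 400 min. Its lowest library was that before serum, its median was 98.1 and its highest value 123 (320 min). ACTG2 (ENSG00000163017.13, chr2:73892314-73919865, plus strand) rested on 1 to 5 counts in each of the first 4 libraries. It then had 22.8, 41.5, 71.4 and 83.3 normalised counts at 60, 120, 240 and 400 min, with a highest value of 108 (340 min). ACTA2 was higher by a log2 change of 0.72 (SE 0.17, edgeR adjusted p = 0.00047) at 400 min and ACTG2 by 3.98 (SE 0.38, adjusted p = 2.6e-12). Without the 0 min library the changes were 0.70 (SE 0.46) and 2.34 (SE 1.87), and neither gene passed. With spike-in size factors ACTG2 passed and ACTA2 did not (0.77, SE 0.27). The count ratio of ACTA2 to ACTG2 was 10.3, 3.27, 1.55 and 1.14 at 0, 60, 240 and 400 min. The fall in this ratio at 400 min, a log2 change of −3.09 (95% interval −3.74 to −2.44), became −1.31 without the 0 min library, and its interval then included 0. ACTA1 and ACTC1, the actins of striated muscle, stayed at or under 14.2 and 6.9 normalised counts.

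**Figure D3:**
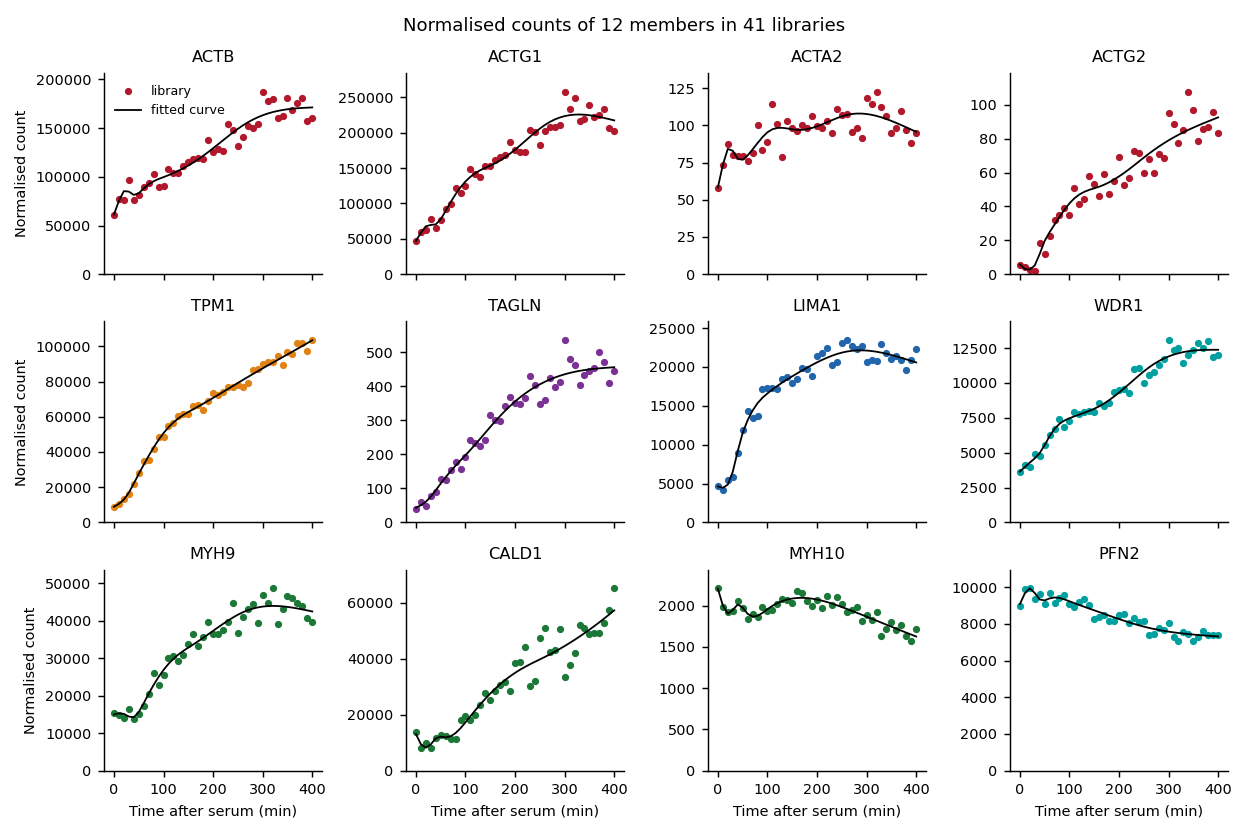
Normalised counts of 12 members in the 41 libraries (points) with the fitted spline (black line) against time after serum, each on a linear axis from 0. ACTB, ACTG1, TPM1 and TAGLN are lowest at 0 min and LIMA1 at 10 min, and MYH10 and PFN2 end lower than they began. The libraries of CALD1 dip after 0 min and lie above their value at 0 min only after 80 min.

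Tropomyosins are coiled coils that lie along the filament and set which proteins can reach it. All 4 genes rose, TPM1 far more than the others. TPM1 (ENSG00000140416.20, chr15:63042620-63071915, plus strand) had 8893, 16168, 34849, 56317, 77155 and 103756 normalised counts at 0, 30, 60, 120, 240 and 400 min. The first and last of these were also the lowest and highest of all 41 libraries, an 11.7-fold range. The fitted log2 change was already 0.92 (SE 0.07) at 30 min, when only 7 members passed, and 3.54 (SE 0.07) at 400 min (edgeR adjusted p = 7.1e-37). TPM4 followed with 1.59 (SE 0.06), TPM2 with 1.40 (SE 0.11) and TPM3 with 0.91 (SE 0.05). The makeup of the family moved accordingly. The TPM1 to TPM2 count ratio was 1.09, 3.24 and 5.12 at 0, 60 and 400 min, and the TPM3 to TPM4 ratio was 0.566, 0.381 and 0.347. Pseudogenes of TPM3 held 5.15% as many counts as the gene, and those of TPM4 1.86%, so the levels of both include some shared reads.

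The calponin family binds along filaments, and calponin restrains the myosin ATPase. TAGLN, also called transgelin or SM22α, is a classical SRF target of smooth muscle. TAGLN (ENSG00000149591.16, chr11:117199370-117207464, plus strand) had 39.4, 125, 233, 403 and 444 normalised counts at 0, 60, 120, 240 and 400 min, with its lowest value before serum, a median of 349 and a highest value of 537 (300 min). Its log2 change at 400 min was 3.41 (SE 0.21, edgeR adjusted p = 5.7e-19), or 10.6-fold. A gene on the same strand, ENSG00000280143, overlaps TAGLN and held 8.87% as many counts. CNN1, calponin 1 of smooth muscle, had 0 to 19 counts per library, with 0 to 2 in the first 4 libraries and 6 to 15 in the last 4. Its fitted log2 change at 400 min was 3.58 (SE 1.01, edgeR adjusted p = 0.0025), from the curve over all 41 libraries. The single libraries had 1 count at 0 min and 10 at 400 min. Their normalised ratio was 9.45, with an exact 95% counting interval of 1.34 to 410.0. The widely expressed members rose less. The log2 change at 400 min was 1.86 (SE 0.12) for CNN2, 1.56 (SE 0.05) for CNN3 and 0.67 (SE 0.09) for TAGLN2, and the ratio of TAGLN to TAGLN2 counts went from 0.0076 to 0.0563. TAGLN2 therefore remained the more abundant transgelin throughout.

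Of the 8 myosin chains and myosin regulators, 5 were higher at 400 min, MYH10 was lower, MYLK did not pass and MYL9 was not tested. MYH9 and MYH10 encode the heavy chains of non-muscle myosin IIA and IIB. MYH9 (ENSG00000100345.21, chr22:36281280-36388010, minus strand) had 15277, 17287, 30556, 44711 and 39685 normalised counts at 0, 60, 120, 240 and 400 min, between a lowest value of 13633 (40 min) and a highest of 48784 (320 min). MYH10 (ENSG00000133026.12, chr17:8474207-8631376, minus strand) had 2216, 1837, 2023, 2099 and 1713 at the same times, with its highest value before serum, a median of 1948 and its lowest, 1569, in the library of 390 min. All of the last 4 libraries of MYH10 lay below all of the first 4. The log2 change at 400 min was 1.51 (SE 0.11, edgeR adjusted p = 1e-14) for MYH9 and −0.44 (SE 0.06, adjusted p = 3.7e-08) for MYH10. The fitted level of MYH10 dipped from 2207 at 0 min to 1867 at 70 min, recovered to 2095 at 170 min and ended at 1626. Its log2 change between 240 and 400 min was −0.30 (SE 0.04). With the GC offset MYH10 was already lower at 30 min, by −0.27 (SE 0.06), and at 60 min, by −0.26 (SE 0.06). The MYH9 to MYH10 count ratio was 6.89, 15.1 and 23.2 at 0, 120 and 400 min, a log2 change of 1.94 (95% interval 1.72 to 2.17).

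The light chains that were tested were all higher at 400 min, by different amounts. MYL12A and MYL12B, the non-muscle regulatory light chains whose phosphorylation switches the motor on, had log2 changes of 1.60 (SE 0.07) and 1.05 (SE 0.06) at 400 min, and MYL6, the essential light chain, 0.64 (SE 0.07), all with an edgeR adjusted p of 3.5e-10 or less. The ratio of MYL12A to MYL12B counts went from 0.638 at 0 min to 0.930 at 400 min. MYL6 overlaps MYL6B on the same strand, and MYL6B held 46.9% as many counts, so part of the MYL6 level may belong to either gene. MYLK, the myosin light chain kinase, ranged only from 2527 to 3093 normalised counts over the 41 libraries, with 2999 at 0 min and 3040 at 400 min (log2 change 0.05, SE 0.06, adjusted p = 0.50). With the GC offset MYLK was lower at 240 min, by −0.20 (SE 0.05), as was MYH10, by −0.19 (SE 0.05). The CArG box shown above for MYLK lies at an internal start near the 3′ end of the gene (chr3:123610049-123884332, minus strand). The promoter at the 5′ end of MYLK was not scanned.

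CALD1, caldesmon, ties actin to myosin and inhibits their sliding, and its level dipped before it rose above that at 0 min. The fitted level fell from 13033 at 0 min to 8152 at 20 min, was 12113 at 50 min and 11865 at 60 min, and then climbed. CALD1 (ENSG00000122786.19, chr7:134744252-134970729, plus strand) had 13721, 7896, 8086, 12344, 19919.6, 31858 and 65284 normalised counts at 0, 10, 30, 60, 120, 240 and 400 min, with its lowest value in the library of 10 min and its highest in the last one. Its fitted log2 change was −0.48 (SE 0.23, edgeR adjusted p = 0.23) at 30 min, −0.14 (SE 0.21) at 60 min, 0.73 (SE 0.22, adjusted p = 0.0096) at 120 min and 2.14 (SE 0.24, adjusted p = 2.5e-09) at 400 min. The gene spans 226 kb and its transcript has a GC content of 41.3%. Its libraries scattered about the curve more than those of most members, and their deviations followed those of CAPZA1 (r = 0.95 over 41 libraries) and ran against those of ACTB (r = −0.86). These correlations describe libraries shared by all members. With the GC offset the changes of CALD1 at 120 and 400 min were 0.67 (SE 0.16) and 2.02 (SE 0.18).

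All 5 crosslinking and filament-binding genes were higher at 400 min. LIMA1, also called EPLIN, stabilises and bundles filaments. LIMA1 (ENSG00000050405.13, chr12:50175788-50283520, minus strand) had 4732, 5898, 14396, 17148, 20692 and 22297 normalised counts at 0, 30, 60, 120, 240 and 400 min, between a lowest value of 4102 (10 min) and a highest of 23510.3 (260 min). Its steepest rise fell between 30 and 60 min. The log2 change was 0.49 (SE 0.10) at 30 min, 1.50 (SE 0.10) at 60 min, 2.22 (SE 0.10) at 240 min and 2.15 (SE 0.10, edgeR adjusted p = 6.9e-23) at 400 min.

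ACTN1 and ACTN4, the non-muscle α-actinins that crosslink antiparallel filaments, rose alongside each other, by 1.49 (SE 0.10) and 1.31 (SE 0.12) on the log2 scale at 400 min. At 60 min only ACTN1 passed, with 0.33 (SE 0.09), and ACTN4 had 0.09 (SE 0.11). The log2 ratio of the pair differed from that at 0 min by 0.24 (SE 0.05) at 60 min and 0.18 (95% interval 0.09 to 0.28) at 400 min, and by 0.089 at 400 min with the GC offset, when the interval included 0. FLNA and FLNC encode filamins, which join filaments at wide angles. FLNA, of far higher level, changed by 0.85 (SE 0.13), and FLNC, best known from muscle, by 1.63 (SE 0.19). FLNC ran from 487 normalised counts at 50 min to 2158 at 320 min. The FLNA to FLNC count ratio was 59.2, 73.5, 45.3 and 37.1 at 0, 60, 120 and 400 min.

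The formins nucleate and elongate straight filaments and had small changes. DIAPH1 (ENSG00000131504.16, chr5:141515016-141619055, minus strand), a direct effector of RhoA, had 969, 966, 1163, 1213 and 1222 normalised counts at 0, 60, 120, 240 and 400 min, between a lowest value of 924 (50 min) and a highest of 1439 (320 min). Its log2 change at 400 min was 0.33 (SE 0.10, edgeR adjusted p = 0.0051). DIAPH3 had 107 to 186 normalised counts and a log2 change of −0.39 (SE 0.19, adjusted p = 0.078). DIAPH3 was also the only member tested in which all spline terms together did not pass (adjusted p = 0.097). The other 37 of 38 changed over the course, as did 75.5% of all genes tested. By the Ljung-Box test of whether neighbouring time points resemble each other, 36 of 38 members passed (60.9% of all genes), and DIAPH3 and TMSB10 did not.

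Of the 11 turnover factors, 9 were higher at 400 min, PFN2 was lower and TMSB10 did not pass. WDR1 (AIP1), which speeds up cofilin-driven disassembly, rose most. WDR1 (ENSG00000071127.16, chr4:10068089-10116972, minus strand) had 3610.2, 6255, 7807, 11079 and 11999 normalised counts at 0, 60, 120, 240 and 400 min, with its lowest value before serum and its highest, 13106, in the library of 300 min. Its log2 change at 400 min was 1.77 (SE 0.08, edgeR adjusted p = 2.4e-23). The severing proteins it works with rose less. The log2 change at 400 min was 0.96 (SE 0.06) for DSTN, which encodes destrin, 0.69 (SE 0.08) for CFL1, the non-muscle cofilin, and 0.53 (SE 0.15) for CFL2, the muscle cofilin. CAP1, which recharges actin monomers, was higher by 0.96 (SE 0.05). The Arp2/3 complex nucleates branches, and its subunit genes ARPC5 and ARPC2 were higher by 1.15 (SE 0.06) and 0.90 (SE 0.05). CAPZA1, a subunit of the protein that caps barbed ends, was higher by 0.49 (SE 0.12), all on the log2 scale. With the GC offset CAPZA1 was higher by 0.31 (SE 0.04) at 400 min, and CFL2 had passed by 30 min, at 0.47 (SE 0.07).

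The monomer-binding proteins went different ways. Profilins feed monomers to growing ends. PFN1 was higher by 0.45 on the log2 scale (SE 0.09, edgeR adjusted p = 2.2e-05) at 400 min, whereas PFN2 changed by −0.31 (SE 0.06, adjusted p = 1.1e-05). PFN2 (ENSG00000070087.14, chr3:149964904-150050788, minus strand) had 8966, 9676, 9219.6, 8111 and 7419 normalised counts at 0, 60, 120, 240 and 400 min, with a median of 8294, a highest value of 9968 (20 min) and a lowest of 7042 (320 min). Its last 4 libraries all lay below its first 4. ANKUB1 overlaps PFN2 on the same strand and held 12.9% as many counts. The PFN1 to PFN2 count ratio was 0.821, 0.869, 1.17 and 1.30 at 0, 120, 240 and 400 min, a log2 change of 0.76 (95% interval 0.54 to 0.98). TMSB10, a β-thymosin that sequesters monomers, ranged from 27615 to 39017 normalised counts, with 30615 at 0 min and 28127 at 400 min (log2 change −0.06, SE 0.09, adjusted p = 0.56).

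**Figure D4:**
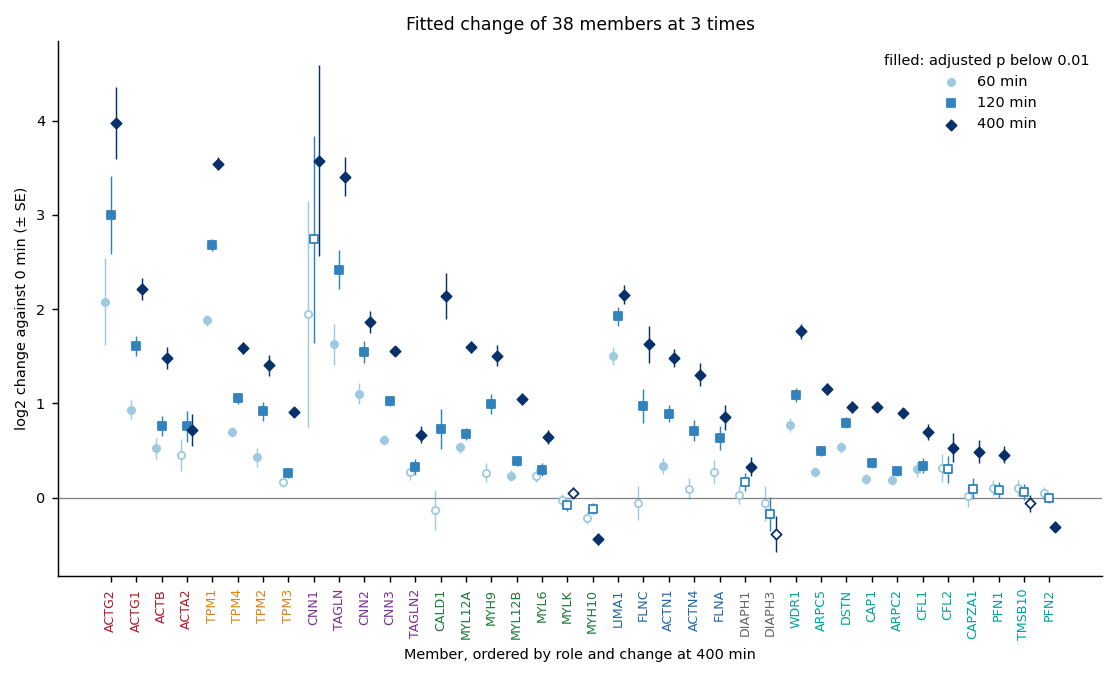
Fitted log2 change against 0 min of the 38 members at 60, 120 and 400 min, with SE bars from edgeR. Filled symbols passed an adjusted p of 0.01, members are ordered by role and by the change at 400 min, and most members have larger changes at 400 min than at 60 min, while MYH10 and PFN2 lie below 0 at 400 min.

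**Figure D5:**
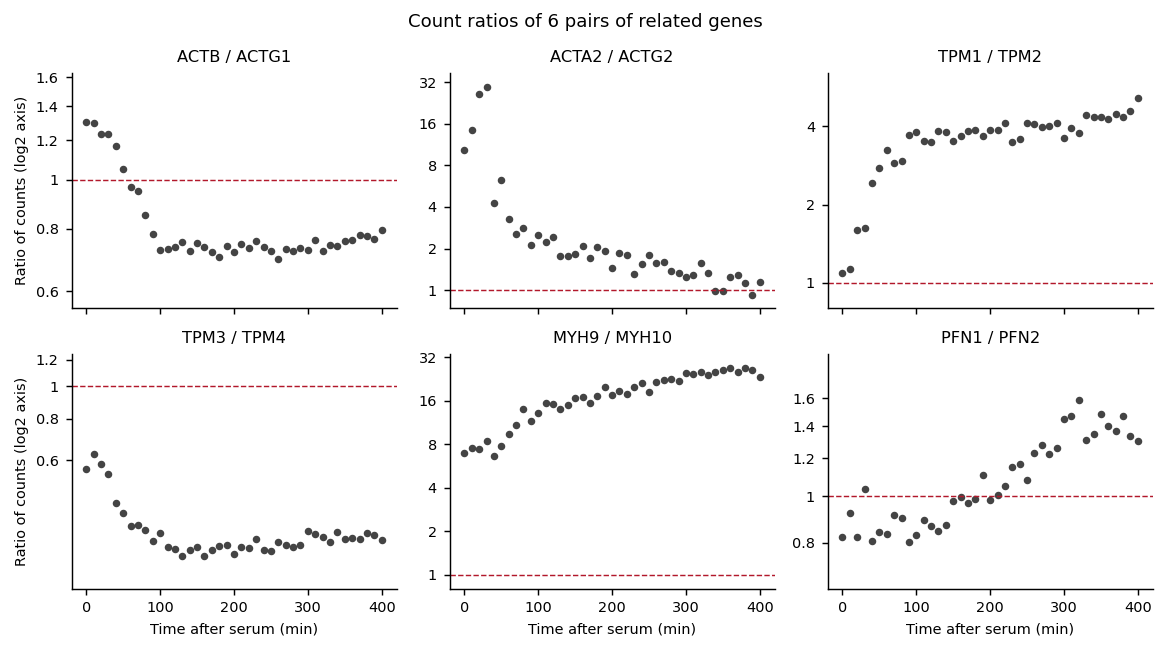
Count ratios of 6 pairs of related genes in the 41 libraries against time after serum, on a log2 axis, with the dashed line at equal counts. ACTB to ACTG1 crosses below 1 at 60 min, PFN1 to PFN2 ends above 1, and TPM1 to TPM2 and MYH9 to MYH10 end far above their first values.

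The members differed in when they rose. At 30 min the 7 that were higher were ACTG1, TPM1, TPM4, CNN2, CNN3, MYL12A and LIMA1, with log2 changes from 0.26 (CNN3) to 0.92 (TPM1). Of the 30 members with a log2 change of at least 0.5 at 400 min that passed, LIMA1 had reached the largest share at 60 min, 70.0% of that change, followed by ACTA2 with 63.5%, CNN2 with 59.1% and CFL2 with 58.7%. DSTN had reached 55.4% and TPM1 53.1%. ACTA2 and CFL2 had not passed at 60 min (edgeR adjusted p = 0.11 and 0.23). At the other end, ACTN4 had reached 7.06%, MYH9 17.6%, TPM3 17.8% and CAP1 20.4%, and CALD1 and FLNC had fitted values below that at 0 min (−6.34% and −3.79%). With the GC offset these shares were 71.9% for LIMA1, 56.6% for ACTA2, 54.6% for CNN2 and 7.34% for ACTN4, while that of CFL2 moved to 114%. Over the 30 members, the share reached at 60 min had a Spearman's rho of −0.21 with the genomic span of the gene and of −0.09 with GC content, both weak and given as a description only.

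The order was also read from the time at which the running mean of 3 libraries passed the midpoint of its rise. Among the 33 members that were higher at 400 min, it was earliest for CFL2, at 45.8 min. That time was counted from a low at 20 min. With the GC offset CFL2 showed no such low and had 1060, 1340 and 1456 normalised counts at 0, 10 and 20 min. The midpoint came at 68.4 min for LIMA1, 72.9 min for DSTN, 83.9 min for CNN2, 111 min for TPM4, 113 min for CNN3 and 115 min for TPM1. It was 135 min for MYH9, 143 min for ACTG1, 183 min for ACTB and 199 min for CALD1. The latest were FLNC at 232 min, MYL12A at 233 min, ARPC2 at 237 min and PFN1 at 275 min. The median over the 33 members that were higher at 400 min was 154 min, and it lay between 144 and 154 min under the alternatives. The time of the highest level was less certain. By the running mean, 16 of the 33 members were highest at 300 to 320 min and 15 at 360 min or later, and with the GC offset 7 and 24 were. At 300 min the deviations of the 38 members from their curves had r = 0.79 with GC content.

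With the median-of-ratios size factors, part of the response was still building at the end of the course. Between 120 and 240 min 25 members rose and 1 fell (18.0% and 18.1% of all genes tested), and between 240 and 400 min 17 rose and 1, MYH10, fell (14.8% and 14.5%). The largest late rises, in log2 change from 240 to 400 min by edgeR, were 0.56 (SE 0.13) for CALD1, 0.50 (SE 0.04) for MYL12A, 0.48 (SE 0.13) for ACTG2, 0.44 (SE 0.11) for FLNC, 0.42 (SE 0.03) for TPM1 and 0.40 (SE 0.03) for MYL12B. ARPC5, ARPC2, CAPZA1, TPM3 and CAP1 followed with 0.30 to 0.38. With the GC offset 27 members rose and 3 fell (LIMA1, MYH10 and PFN2) in this interval, where 18.0% and 15.7% of all genes did. With spike-in size factors 1 of 38 rose and none fell, where 2.13% and 4.75% of all genes did. On that scale the count of members that rose did not stand out from all genes. The median log2 change of the members was still 0.15, beside 0.16 with the median-of-ratios size factors. In both settings 32 of 38 members lay above the median of all genes tested.

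SRF, its cofactors and other actin regulators moved in both directions. SRF had log2 changes of 1.91 (SE 0.14) at 30 min, 3.22 (SE 0.13) at 120 min and 1.98 (SE 0.13) at 400 min. Of its cofactors, MRTFA was higher by 1.88 (SE 0.12) at 240 min and MRTFB was lower at 400 min, at −1.79 (SE 0.10), all past an edgeR adjusted p of 0.01. Of 18 genes of the Arp2/3 complex and its activators, 7 were higher and 2 lower at 400 min. Of 41 other bundlers, cappers, monomer binders and formins, 18 were higher and 5 lower, where 24.2% and 22.4% of all genes tested were. The median log2 change of these lists at 400 min was 0.22 and 0.27, beside 1.10 for the members. All 39 members and these lists were chosen with earlier results of these data known, so no count of them is independent evidence.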

How the data were processed

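Per the labels and the study's methods, rRNA-depleted stranded libraries were pooled for sequencing. The counts per gene were deposited as the authors made them, with cutadapt 1.11 for trimming, STAR 2.5.2a for alignment to GRCh38 and featureCounts for exons by strand, where a read shared by several genes counted for each. The deposited signal per gene is that count over the DESeq2 1.24.0 size factor of its library. Here the counts were analysed, with the same size factors recomputed. Symbols, spans and lengths came from GENCODE 44 on the same genome (58207 genes matched), and promoters from RefSeq (35 of 39 members matched; the other 4 were not analysed here).

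Genes passed the study's filter with more than 10 counts in any 1 library and more than 2 in any 3 time points in a row. In edgeR 4.0.16 (R 4.3.3, limma 3.58.1), quasi-likelihood models used a cubic spline basis with knots at 20, 40, 60, 100, 160 and 260 min (7 degrees of freedom), and 5 times were tested against 0 min with Benjamini-Hochberg adjustment over all genes. The 33 residual degrees of freedom measure the spread of single libraries about the curve. Pair ratios (0.5 added to both counts) were fitted by least squares on the same spline. The GC offset took the median log ratio of each library to the gene means in 20 bins of transcript GC content, for the 99.1% of tested genes with a value. The fits were tested on simulated data. Plots were drawn with matplotlib 3.10.9.

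The 39 members, the other gene lists, the tests and the alternatives were chosen with earlier results of these data known. All 39 are named, and 1 further list and 1 further gene are not reported here. Full values are given for the actins, for those that were lower and, in each role, for the largest changes past the threshold. Alternatives differed in scaling (TMM, total counts, spike-ins, GC offset), filter, knots, libraries kept, threshold and tool (DESeq2 1.42.0). Change over the whole course was also tested by Ljung-Box (lag 1).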

Additional observations from a re-analysis of the deposited data

How the results depend on the processing

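No paired analysis was possible because each time point has 1 library and no replicate numbers are shared. Of 2845 comparisons of a member's change at 1 time under an alternative, 2585 kept direction and side of the threshold, 193 lost the call, 61 gained it and 6 reversed (at 400 min 537, 31, 1 and 0 of 569). The cause of these changes was not tested. Without the 0 min library 1, 4, 10, 19 and 22 members were higher at 30, 60, 120, 240 and 400 min (7, 19, 28, 31 and 33 with it) and 0 were lower at 240 or 400 min. With spike-in size factors 0, 4, 14, 25 and 28 were higher, 0 were lower at 240 or 400 min, 14 rose and 0 fell from 120 to 240 min (25 and 1 otherwise), and 1 rose and 0 fell from 240 to 400 min (17 and 1 otherwise). On that scale 8.57% of all genes rose and 6.04% fell from 120 to 240 min. At 30 min 3 were higher by library size, 3 with every second library and 2 with members free of pseudogenes alone. With even knots, the GC offset, DESeq2 or an adjusted p below 0.05, 12 were. Of all genes tested, 1.26% were higher at 30 min by library size and 1.01% with every second library. The shares were 3.96% with even knots, 2.38% with the GC offset, 2.05% in DESeq2 and 1.71% otherwise. With the GC offset 1 was lower at 30 min, and 1 was lower at 60 min with that offset, a mean count of at least 50, DESeq2 or the 0.05 threshold. Among all genes, 0.952% were lower at 30 min with that offset. At 60 min 2.67% were with the offset, 1.33% with a mean count of at least 50 and 1.30% in DESeq2. At 240 min 1 was lower, but 3 by library size, the GC offset or the 0.05 threshold, 2 with 5 degrees of freedom, even knots or 10 min as the reference, and 0 with every second library. The shares of all genes lower at 240 min were 18.5%, 20.6% by library size and 22.1% with the GC offset. They were 19.8% with 5 degrees of freedom, 23.6% with even knots, 26.4% with 10 min as the reference and 14.9% with every second library. From 240 to 400 min 11 rose with even knots, 10 with every second library and 27 with the GC offset, while 2 fell under TMM or a mean count of at least 50 and 3 with the GC offset. In this interval 10.1% of all genes rose with even knots, 8.44% with every second library and 18.0% with the GC offset. The shares that fell were 14.7% under TMM, 20.2% with a mean count of at least 50 and 15.7% with the GC offset. Directions reversed for ACTG2 at 30 min with even knots (1.72), for MYL12B (−0.014), ARPC2 (−0.056) and CAP1 (−0.052) at 60 min with spike-ins, and without the 0 min library for ARPC2 at 60 (−0.10) and 120 min (−0.011).

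Highest levels at 300 to 320 min (16 members) became 1 with spike-ins and 7 with the GC offset, and those at 360 min or later (15) became 24 with the latter. Among the 15 pairs at 400 min, log2 ratio changes whose interval came to include 0 without the 0 min library were ACTA2/ACTG2 (−1.31), CNN2/CNN3 (0.22), CFL1/DSTN (−0.19) and DIAPH1/DIAPH3 (0.16), and with the GC offset ACTN1/ACTN4 (0.089) and CFL1/DSTN (−0.080). CFL1/CFL2 came to exclude 0 with that offset (0.38), and CNN1/CNN2 with 5 degrees of freedom (1.53). By canonical transcript length, TMSB10 ranked 4 instead of 1 at 400 min, ACTB 2 instead of 3, ACTG1 1 instead of 2 and TPM1 3 instead of 6 (at 0 min 7 instead of 23). With 1 mismatch 11 members had a CArG box. At 400 min the Arp2/3 list had 3 higher and 0 lower with spike-ins and without the 0 min library, and 1 lower with every second library. The other filament list had 9 higher and 1 lower without the 0 min library and 3 lower with spike-ins. Of 8 genes of SRF and its partners, 4 were higher and 2 lower at 400 min, and 2 and 1 without the 0 min library. At 400 min 12.6% of all genes were higher and 11.4% lower with spike-ins, and 8.17% and 5.24% without the 0 min library (24.2% and 22.4% otherwise). Low counts limit CNN1, ACTG2 and MYL9.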

Other observations

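Genes next to the described set gave further values, and those named here were chosen after their values were seen. RHOB, a short-lived relative of RhoA, was higher by 4.82 on the log2 scale (SE 0.16) at 120 min and 3.69 (SE 0.16) at 400 min, and RND3, which inhibits ROCK signalling, by 2.83 (SE 0.24) at 240 min. Among the Arp2/3 genes, ACTR3 was higher by 1.48 (SE 0.10) and ARPC5L by 1.16 (SE 0.09) at 400 min. The bundling protein LCP1 was higher by 4.37 (SE 0.19), the class I myosin MYO1E by 2.64 (SE 0.09) and ENAH, which protects growing ends, by 2.25 (SE 0.14). SVIL, supervillin, fell by 3.76 (SE 0.21) at 400 min. All of these passed an edgeR adjusted p of 0.01.

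LMOD1, the 1 marker of contractile muscle above 14.2 normalised counts, was higher by 4.57 on the log2 scale (SE 0.33) at 120 min and by 2.85 (SE 0.39) at 400 min, whereas TAGLN and ACTG2 had larger changes at 400 min than at 120 min. The difference between these genes was not tested.

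By length, TMSB10, ACTB and ACTG1 led the members, while ACTA2 and ACTG2 were near the bottom. Per kb of merged exon TMSB10 had 66411 normalised counts at 0 min and 61013 at 400 min, and ACTG1 passed ACTB between these times. TPM1 moved from rank 23 of the members to rank 6, or from rank 7 to 3 by the length of the canonical transcript.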
